A study of Mus musculus with 2 samples.

Results

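Aminoacyl-tRNA synthetases are the enzymes that join each amino acid to its transfer RNA, the step that gives translation its raw material. The 36 genes described here were taken by symbol from the deposited count lists and all 36 had reads, among 15574 genes with a read in at least 1 library. They were sorted by where the enzyme works: 18 cytosolic genes, 2 genes that make enzyme for both compartments (Gars for glycine and Kars for lysine) and 16 mitochondrial genes. The RNA came from mouse Th17 cells, CD4 T cells known for their IL-17 cytokines, grown in culture from naive C57BL/6 T cells. Cells labelled CREB KO (a knockout of the cyclic AMP-responsive transcription factor encoded by Creb1) and wildtype cells both spent 6 days with IL6, TGFb, IL1b and IL23, and both were stimulated through CD3 with plate-bound antibody for 4 h. No source used here gives the means of deletion, the deleted region or the number of mice or cultures. The study asks which genes CREB regulates in these cells.

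Each genotype had 1 library, with 23938112 counted reads for the CREB KO label and 26525471 for wildtype, so no p-value is given and every difference lies between 2 libraries. Of 10 listed Th17 and T cell markers, Trac appeared in neither library and was taken as 0. The markers averaging at least 1 CPM (counts scaled to library size) numbered 8. Of these, Cd3e and Cd4 had ratios of 1.04 and 0.932 (CREB KO label over wildtype), and Il17f, Il17a and Il23r lower ones of 0.360, 0.588 and 0.698. Markers of CD8 T, B, NK, myeloid, dendritic, erythroid, fibroblast and Treg cells numbered 19, and 2 of them reached 1 CPM. These were Cd8b1 at 9.75 and 8.96 CPM and Cd79a at 1.08 and 0.983 CPM. Another 8 of the 19 appeared in neither library and were taken as 0. Creb1 itself had 25 reads in the library labelled CREB KO and 13 in wildtype (1.04 and 0.491 CPM), a ratio of 2.08 (1.04 to 4.51). The label is not borne out by the count of the targeted gene. That count is low in both libraries and does not show which exons the reads came from, so it cannot settle whether the gene was deleted. A ratio is the level in the library labelled CREB KO over that in wildtype. Its 95% interval (exact conditional binomial) covers counting error only, and PCR copies, which no molecular identifiers mark here, would make it too narrow.

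Animal cells hold separate sets of synthetases for cytosol and mitochondria, all but a few of the mitochondrial ones encoded by nuclear genes of their own. Several cytosolic enzymes sit together in the multisynthetase complex, held by the scaffold proteins AIMP1, AIMP2 and EEF1E1 (AIMP3). The cytosolic set is also known as a target of ATF4, a bZIP relative of CREB that raises amino acid supply and tRNA charging genes when amino acids run short or the endoplasmic reticulum is stressed. T cells that have been activated raise protein synthesis, and mitochondrial translation is needed to build the respiratory chain.

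Lars2, the mitochondrial leucyl-tRNA synthetase gene, stood apart from every other synthetase in level and in ratio. It lies on chromosome 9 from 123366927 to 123462666 on the plus strand (GRCm38), and its longest coding transcript has 21 exons. It had 110368 reads in the library labelled CREB KO and 34502 in wildtype, or 0.461% and 0.130% of all counted reads. These counts are 4598 and 1304 CPM, a ratio of 3.53 (3.48 to 3.57). By CPM it ranked 8 among all genes in the first library and 94 in the second. Its ratio ranked 2 among the 7324 genes that reached 10 CPM in either library, and the next ratio at a mean level of at least 100 CPM (2162 genes) was 1.78.

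No other member shared the high Lars2 ratio. Of the 34 members averaging at least 1 CPM, Lars2 was the only one past 1.5-fold higher with an interval excluding 1, where 2.48% of the 10462 genes at that level were past it. None was 1.5-fold lower (1.5% of genes). The second highest ratio belonged to Wars, the cytosolic tryptophanyl-tRNA synthetase, which had 75 reads against 66 and a ratio of 1.25 with an interval that includes 1 (0.888 to 1.77). The third belonged to Vars2, the mitochondrial valyl enzyme, with 1274 reads against 1254, a ratio of 1.12 and an interval just above 1 (1.03 to 1.21). Lars, the cytosolic leucyl enzyme and the counterpart of Lars2, had 2337 reads against 2875 and the opposite direction, with a ratio of 0.896 (0.848 to 0.947). Lars2 and Vars2 were the 2 members whose interval lay above 1, and 10 members had an interval below 1, against 16.2% and 19.5% of all measured genes.

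**Figure D1:**
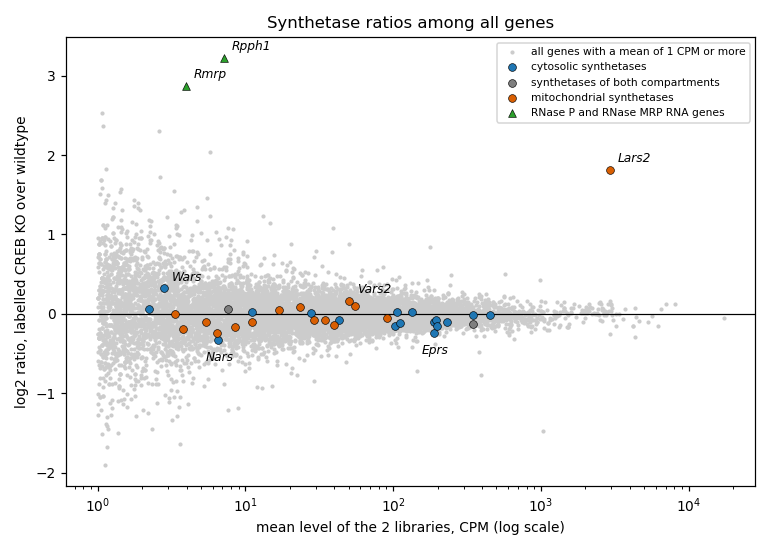
Log2 ratio (labelled CREB KO over wildtype) against the mean level of both libraries in CPM on a log axis; grey points are all 10462 genes averaging at least 1 CPM, coloured circles the 34 synthetases at that level, and triangles the RNA genes of RNase P and RNase MRP. Lars2 lies far above the band that holds the other synthetases, at a log2 ratio of 1.82.

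Because of this gene, sums over mitochondrial synthetases describe Lars2 more than the group. Lars2 made up 92.4% of the reads of the 16 mitochondrial genes in the library labelled CREB KO and 77.4% in wildtype. It made up 60.5% and 29.2% of the reads of all 36 members. The 14 other measured mitochondrial genes together had 9049 and 10054 reads, fewer than the cytosolic valyl gene Vars alone (10877 and 12088).

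Some RNAs that are not messenger RNAs differed between the same libraries in the same direction as Lars2, and they are given here beside it. Rpph1, the RNA component of RNase P, had 310 reads in the library labelled CREB KO and 36 in wildtype, a ratio of 9.37 (6.71 to 13.8). Rmrp, the RNA of the related RNase MRP, which cuts ribosomal RNA precursor, counted 169 reads against 25, a ratio of 7.32 (4.88 to 11.8). Both are made by RNA polymerase III and lack poly(A) tails. Rn4.5s, a small rodent RNA, counted 38 reads against 51, for a ratio of 0.823 (0.525 to 1.27). The other 14 symbols sought for ribosomal and small structural RNA appeared in neither library and were taken as 0. Rn45s, mt-Rnr1, mt-Rnr2 and Rn7sk are among them. No source used here says whether the counting covered these genes, so a 0 does not show absent RNA.

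Loci at which ribosomal RNA-like reads are often counted in mouse data are given beside Lars2 as well. Whether their counts hold such reads in these libraries was not tested. All 5 measured ones of 6 (Cmss1, Camk1d, Cdk8, Jarid2 and Zc3h7a) had intervals that include 1, with ratios from 0.937 to 1.08. The 3894-base Lars2 transcript shared no exact stretch longer than 14 bases with 360 annotated ribosomal RNA and ribosomal RNA-like transcripts. The full ribosomal RNA precursor was not used here, and a search for exact stretches does not find sequence that is alike with mismatches. The Lars2 transcript shared 52 bases, from base 3278 and so inside its 989-base 3′ UTR, with the antisense RNA Gm15564 of another chromosome. Gm15564 has no counted reads in either library, and whether the counting covered it is not known. The part of non-messenger RNA in the Lars2 count was not tested.

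Apart from Lars2, cytosolic genes had a higher median level than mitochondrial ones, a gap that depended on how many transcripts are annotated. Levels between genes are given as CPM per kilobase of annotated exon. The 18 cytosolic genes ranged from 0.171 to 110 in the library labelled CREB KO and from 0.172 to 110 in wildtype, with medians of 36 and 40.7. The 15 mitochondrial genes other than Lars2 ranged from 0.0547 to 30.4 and from 0.0744 to 28.5, with medians of 3.91 and 4.40. The ranges of both sets overlap widely. Lars2 was at 1181 and 335 CPM per kilobase, the highest member in each library, followed in both by Gars at 140 and 153 and Vars, the cytosolic valyl enzyme, at 110 in each.

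**Figure D2:**
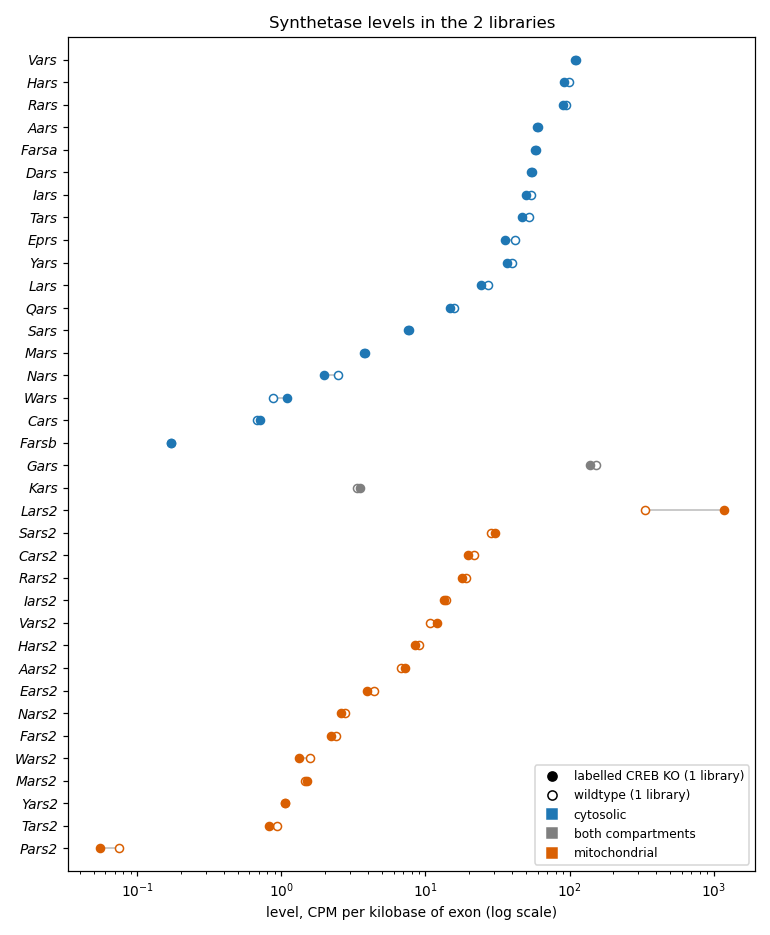
Level of each of the 36 synthetase genes in CPM per kilobase of exon on a log axis, filled circles for the library labelled CREB KO and open circles for wildtype, with colours for the compartment. The 2 libraries nearly coincide for most genes; Lars2, at 1181 and 335, has by far the widest gap among the well-counted ones.

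Comparing cytosolic genes with the mitochondrial gene for the same amino acid, with Farsa for phenylalanine and Eprs for both glutamate and proline, gave the same order in both libraries for all 16 pairs. In 11 pairs the cytosolic gene was higher per kilobase. The methionine order rests on annotated exon length, 11294 bases for Mars2 against 2963 for Mars. By CPM Mars2 was the higher, at 17.0 and 16.5 against 11.2 and 11.1 (CREB KO label, then wildtype). For alanine, Aars was at 59.7 and 60.2 CPM per kilobase in the CREB KO label and wildtype, and Aars2 at 7.25 and 6.81. For arginine, Rars was at 89.6 and 94.6 and Rars2 at 18 and 19. For valine, Vars exceeded Vars2 9.13-fold and 10.3-fold. Farsb in place of Farsa reverses the phenylalanine pair, at 0.171 and 0.172 CPM per kilobase against 2.22 and 2.38 for Fars2. In 5 pairs the mitochondrial gene was higher: Lars2, Cars2, Sars2, Nars2 and Wars2. For serine, Sars was at 7.63 and 7.58 CPM per kilobase and Sars2 at 30.4 and 28.5, and for cysteine Cars was at 0.711 and 0.680 and Cars2 at 19.7 and 21.8.

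The low levels of several cytosolic genes go with the number of transcripts annotated for them, which bears on the order above. The files hold uniquely assigned reads, and no source used here says how reads shared by transcripts of 1 gene were treated. The 16 members with 1 curated RefSeq transcript had mean levels from 1.46 to 146 CPM per kilobase, with a median of 27.7. The 12 with 2 curated transcripts ranged from 0.696 to 58.4, with a median of 13.1. The 7 with 3 or more, Lars2 left out, ranged from 0.0645 to 8.74, with a median of 0.979. These were Pars2, Farsb, Tars2, Wars, Nars, Kars and Hars2. Farsb, which encodes the beta subunit of phenylalanyl-tRNA synthetase, had 9 and 10 reads, while Farsa, the alpha subunit of the same enzyme, had 2580 and 2798. Kars had 188 and 199 reads, while its dual-compartment companion Gars had 7982 and 9607. Lars2, with 3 curated transcripts, was the exception. The gap between compartments was wide in members with 1 curated transcript, where the median levels per kilobase were 54.9 and 56.9 for 8 cytosolic genes and 3.91 and 4.40 for 7 mitochondrial genes (CREB KO label, then wildtype). With 2 or more transcripts the medians lay close together. They were 5.71 and 5.66 for 10 cytosolic genes and 4.74 and 4.60 for 8 mitochondrial genes other than Lars2. Whether reads were lost at these genes was not tested, and their levels may rest on part of their reads. Ratios between the libraries are compared within each gene.

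**Figure D3:**
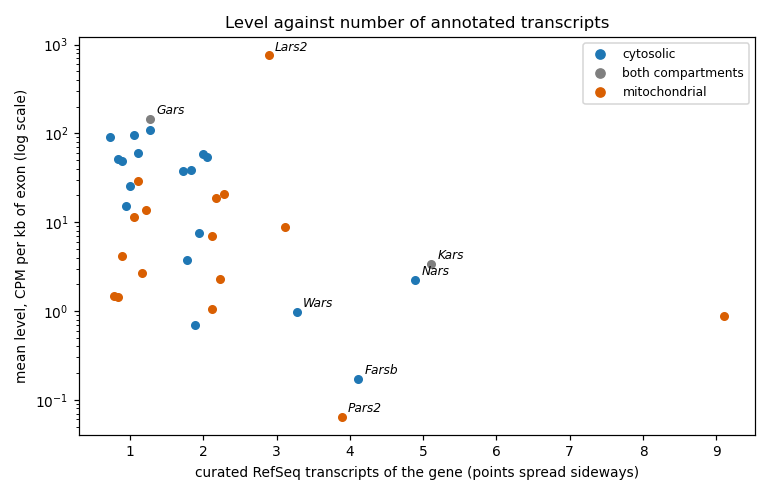
Mean level of each synthetase over both libraries, in CPM per kilobase of exon on a log axis, against its number of curated RefSeq transcripts; colours mark the compartment. Members with 3 or more transcripts lie at or below 8.74, except Lars2.

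Sequence shared with other genes touches a number of members. Hars and Hars2 lie head to head on chromosome 18, and their annotated spans overlap (36766528 to 36783205 on the minus strand and 36783008 to 36792562 on the plus strand). Of the 50-base stretches in the longest coding transcript, 7.53% for Hars and 4.44% for Hars2 also occur in another gene's transcript, the most in each other's. Iars2 (36.6%, shared with Rab3gap2), Aars (22.4%, with Exosc6) and Cars2 (17.8%, with Naxd) had the largest shares. Farsb, 1 of the genes with few reads, came next at 10.1% (with Sgpp2), and Iars shared 8.61%, the most with the processed pseudogene Gm4849. For 21 members the share was 0. Both strands were compared. With no strand setting stated for the counting, how reads from overlapping genes were assigned, or whether they were left out, is not known.

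The cytosolic synthetases were slightly lower in the library labelled CREB KO. Of the 17 measured ones, 11 had a ratio below 1 and 6 above, their median log2 ratio was -0.08, and 8 had an interval below 1 and none above. Over all 10462 measured genes the median was -0.01 and 51.9% had a ratio below 1, with 19.5% of intervals below 1 and 16.2% above. The lowest ratio belonged to Nars, the asparaginyl enzyme, with 139 reads against 192 and a ratio of 0.798 (0.637 to 0.998). It was the 1 member past 1.2-fold lower with an interval excluding 1 (5.48% of genes), and with total-count scaling or the deeper library thinned its ratio stayed near 0.80 but the interval then included 1. Besides Lars2 no member was 1.2-fold higher with an interval excluding 1 (6.19% of genes).

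Of the cytosolic genes at 100 CPM or more, some had ratios below 1 with narrow intervals. Eprs encodes the fused glutamyl and prolyl enzyme, which as part of the GAIT complex also holds back translation of some inflammatory messages. It had 4172 reads in the library labelled CREB KO and 5433 in wildtype, or 174 and 205 CPM, and was 1.18-fold lower (1.13 to 1.23). Lars and Tars, the threonyl enzyme, had ratios of 0.896 (0.848 to 0.947) and 0.897 (0.863 to 0.934), the latter on 4500 against 5527 reads. Yars, the tyrosyl enzyme, counted 2553 reads against 3048, for a ratio of 0.923 (0.876 to 0.973). Hars, Iars and Rars, the histidyl, isoleucyl and arginyl enzymes, had ratios of 0.930, 0.933 and 0.948, each with an interval below 1.

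Other abundant cytosolic genes were level between the libraries. Vars, with the most reads of the cytosolic set, counted 10877 reads against 12088, for a ratio of 0.992 (0.966 to 1.02). Aars counted 8238 reads against 9152, for a ratio of 0.992 (0.963 to 1.02). Dars, the aspartyl enzyme, and Farsa had ratios of 1.02 (0.968 to 1.07) and 1.02 (0.963 to 1.07). Qars, the glutaminyl enzyme, had a ratio of 0.948 with an interval that includes 1 (0.870 to 1.03). Sars, Mars and Cars, for serine, methionine and cysteine, had ratios of 1.01, 1.02 and 1.04 with intervals that include 1. Farsb had too few reads for a direction, at 0.992 (0.357 to 2.72).

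Set against genes of similar level, the small shifts mostly lie inside the spread between these libraries. At a mean level of at least 100 CPM (2162 genes), the central 95% of ratios ran from 0.866 to 1.16. Of 13 synthetases at that level, Eprs lay below this range and Lars2 above it, and the other 11 were inside. The 12 of them other than Lars2 had a median log2 ratio of -0.10, with 10 ratios and 8 intervals below 1. In all genes at that level the median log2 ratio was -0.02, 57.4% of ratios and 34.6% of intervals were below 1, and 24% of intervals were above. None of the 12 members from 10 to 100 CPM or the 9 from 1 to 10 CPM lay outside the ranges for their levels, 0.792 to 1.26 and 0.571 to 1.93.

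**Figure D4:**
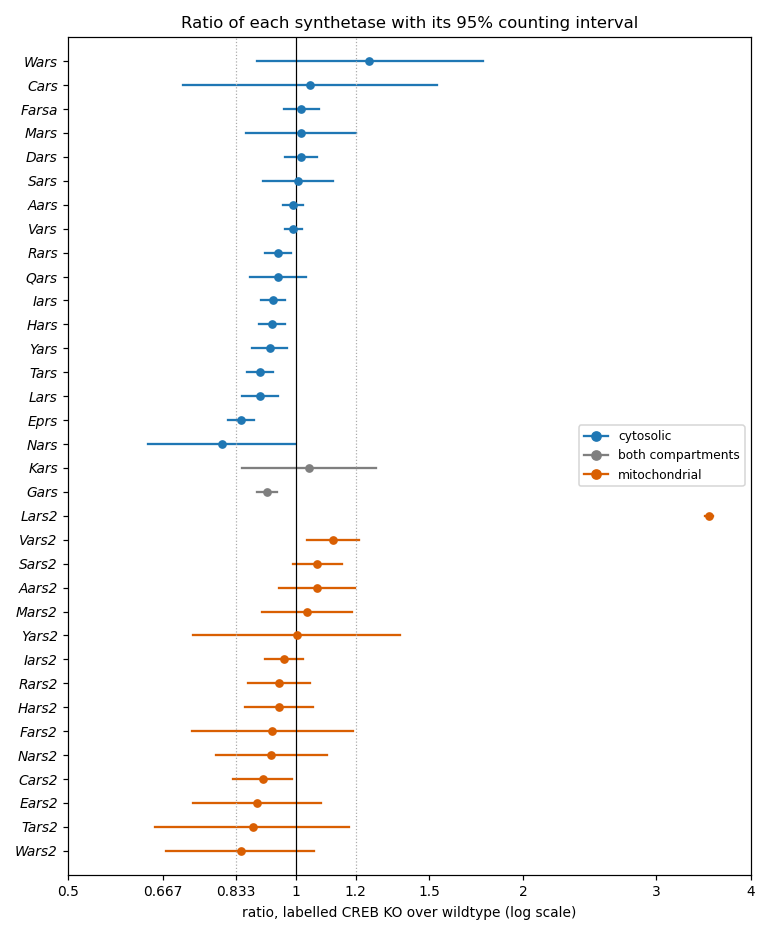
Ratio (labelled CREB KO over wildtype, log axis) of the 34 measured synthetases, by compartment; lines are 95% counting intervals and dotted lines mark 1.2-fold either way. Of 17 cytosolic ratios, 15 lie between 0.846 and 1.04, and Lars2 stands alone at 3.53.

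The mitochondrial set without Lars2 had a similar centre, with ratios on both sides of 1. Of 14 measured genes, 9 had a ratio below 1 and 5 above, and the median log2 ratio was -0.07, against -0.08 for the cytosolic genes. The difference between the compartments has no replicate error here, and it is smaller than the counting interval of any single member. Vars2 had the 1 interval above 1. Cars2, the mitochondrial cysteinyl enzyme, had 901 against 1099 reads and the 1 interval below 1, with a ratio of 0.904 (0.826 to 0.988). Sars2 and Aars2, for serine and alanine, leaned upward with 1362 against 1406 and 583 against 603 reads, ratios of 1.07 each and intervals that include 1 (0.990 to 1.15 and 0.949 to 1.196).

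The remaining mitochondrial genes had intervals that include 1. Iars2, the isoleucyl enzyme and the best counted after Lars2, counted 2150 reads against 2458, for a ratio of 0.964 (0.909 to 1.02). Rars2, Hars2 and Mars2 had ratios of 0.951, 0.9503 and 1.03 on 409 to 938 reads. Ears2, Nars2, Fars2, Tars2, Wars2 and Yars2 had between 80 and 304 reads and ratios from 0.845 to 1.002. Pars2, the prolyl enzyme, had 4 and 6 reads. Of 15 amino acid pairs with both genes measured, the mitochondrial gene had the higher ratio in 11, Lars2 among them. The Lars2 and Vars2 intervals lay above those of Lars and Vars. In every other pair the intervals of both genes overlapped, so the count does not show a shift of the compartment.

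Gars and Kars encode the enzymes that serve both compartments. Gars counted 7982 reads against 9607, for a ratio of 0.916 (0.889 to 0.943), and Kars had a ratio of 1.04 with an interval that includes 1 and the whole of the Gars interval (0.848 to 1.28).

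Grouped by complex, ATF4 responsiveness or catalytic class, the members gave medians close to 0. The 8 enzymes of the multisynthetase complex had a median log2 ratio of -0.08, with 4 intervals below 1 (Eprs, Iars, Lars and Rars) and none above, and the 11 other measured cytosolic or dual genes a median of -0.01 with 5 intervals below 1 and none above. The scaffold genes of the complex all had ratios below 1 with intervals that include it: Aimp1 0.955 (0.906 to 1.01), Aimp2 0.935 (0.847 to 1.03) and Eef1e1 0.933 (0.868 to 1.003). The 12 known ATF4 targets had a median of -0.11 and 7 intervals below 1, and the 7 other measured cytosolic or dual genes a median of -0.01 and 2 intervals below 1. Over all measured genes 19.5% of intervals lay below 1, and at 100 CPM or more 34.6%. The 18 class I enzymes other than Lars2, whose catalytic fold is a Rossmann fold, had a median of -0.08, and the 15 measured class II enzymes one of -0.07.

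ATF4 and its targets outside the synthetases went both ways. Atf4 counted 818 reads against 1060 and came out 1.18-fold lower in the library labelled CREB KO (1.07 to 1.29). Asns, asparagine synthetase, counted 2170 reads against 2863 and came out 1.197-fold lower (1.13 to 1.27). Psat1, of serine synthesis, was 1.43-fold lower on 99 against 156 reads (1.10 to 1.86). It was the 1 of 14 past 1.2-fold with an interval excluding 1, where 5.48% of measured genes were lower and 6.19% higher. The 14 ratios split evenly, 7 either side of 1, with a median log2 ratio of -0.002. Of their intervals 5 lay below 1 and 2 above, where 19.5% and 16.2% of all measured genes did. Sesn2 and Phgdh had the intervals above 1, with ratios of 1.12 (1.04 to 1.21) and 1.05 (1.01 to 1.08).

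Of the other genes of charging and elongation, none was past 1.5-fold with an interval excluding 1 (2.48% of measured genes higher, 1.5% lower). The tRNA exporter gene Xpot counted 3012 reads against 3367, for a ratio of 0.986 (0.938 to 1.04). Among 6 measured genes that complete or resemble tRNA charging, Gatc, of the mitochondrial glutamyl-tRNA amidotransferase, had the 1 interval below 1, with a ratio of 0.871 (0.798 to 0.952). The mitochondrial initiation genes Mtif2 and Mtif3 averaged under 1 CPM. Among 7 other mitochondrial translation genes, all measured, Gfm1, Mrrf and Mtrf1l had intervals below 1. Mtrf1l, a release factor, was the 1 past 1.2-fold, at 1.42-fold lower on 259 against 407 reads (1.22 to 1.67). All 5 cytosolic elongation genes had intervals off 1, with 3 above and 2 below, and all but Eef1d averaged at least 100 CPM. Over all measured genes 16.2% of intervals lay above 1 and 19.5% below, and at 100 CPM or more 24% and 34.6%. Past 1.2-fold with an interval excluding 1 were 6.19% of measured genes on the higher side and 5.48% on the lower. Eef1a1, with 407450 and 465599 reads, had a ratio of 0.965 (0.960 to 0.969), and Eef1d, the 1 past 1.2-fold, had 1.49 (1.03 to 2.20) on 68 against 50 reads.

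Promoters were searched on both strands for the cyclic AMP response element, which CREB binds, and for the C/EBP-ATF element, through which ATF4 acts. RefSeq windows (GRCm38.p6) of 300 bases, 250 before to 50 after each transcript start, were matched for 27 of the 36 members. None of the 27 held the full element TGACGTCA, which 2.03% of 27025 genes held. Its shorter form TGACG, which also lies within the full element, was in the windows of 10 members (37% of 27, against 23% of all genes): Aars2, Ears2, Eprs, Farsb, Mars, Nars2, Sars2, Tars, Wars2 and Yars. The element TGATGNAAT was in 3 members, Aars, Gars and Iars, which is 11.1% of members against 1.08% of all genes. These are matches to letters and not shown to be bound. All 3 genes with a match are on the list of known ATF4 targets. The Gars match is printed because it alone of the 3 lies before the RefSeq start site with no annotated UTR in the stretch. Capitals mark the match, which lies on the opposite strand.
Gars: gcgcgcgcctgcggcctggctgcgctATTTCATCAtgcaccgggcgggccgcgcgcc
The Gars stretch is chr6:55037944-55038000, plus strand, with the match ending 22 bases before the RefSeq start. Of these 3 genes, Aars had a ratio of 0.992, Gars 0.916 and Iars 0.933, so genes with the element did not share 1 size of shift.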

How the data were processed

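Messenger RNA of 2 libraries was counted by the authors. The deposited values are whole-number read counts, 1 for each gene symbol and library, of uniquely assigned reads per the file headers; they are not normalized, and header totals equal the summed counts. HTSeq, bcl2fastq and build mm10 are named in the submitters' processing notes; no source used here gives the aligner, annotation or strand setting. Unlisted genes were taken as 0.

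Scaling used trimmed mean of M-values (TMM) factors (edgeR 4.0.16, R 4.3.3) over all 15574 genes, and ratios used a prior count of 0.5. With 1 library per group edgeR's quasi-likelihood test could not be fitted. Genes averaging at least 1 CPM were counted as measured. Folds of 1.5 and 1.2 with a 95% interval excluding 1 were the call rules. Exon lengths and positions came from GENCODE M21 (GRCm38) and transcript numbers from RefSeq. The steps were tested on simulated counts with counting error only, which does not cover other variation between libraries. All 36 members could be named; from other lists, genes past a fold limit, the most read and those the text turns on, some chosen after their values were seen. Results for some genes of these lists are not reported here. The members and lists were chosen with earlier results of these data known. Python 3.11.15 and matplotlib 3.10.9 were used. Alternatives were 3 other scalings, other filters, a prior count of 5 and thinning.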

Additional observations from a re-analysis of the deposited data

How the results depend on the processing

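Under total-count, DESeq2 and upper-quartile scaling, a prior count of 5, no filter, a mean of 10 CPM or more and thinning of the deeper library, the ratio of Lars2 stayed between 3.52 and 3.54. None of 241 alternative values of a single synthetase left its main interval. Values under no filter or the stricter filter equal the main ones by construction, because a filter does not change a ratio. The scaling factors all lay between 0.997 and 1.003, so the other scalings could move a ratio only slightly. The count past 1.5-fold was 1 higher and 0 lower in each setting. The count past 1.2-fold lower with an interval excluding 1 (Nars, 0.798) became 0 under total-count scaling (ratio 0.803) and thinning (0.802), where the ratio stayed and the interval included 1, and under a mean of 10 CPM or more, which removes the gene. The cytosolic median log2 ratio ran from -0.09 to -0.04 and the mitochondrial one from -0.07 to -0.002, the latter over members of 10 CPM or more; without Lars2 it was -0.07. Over members with 1 curated transcript, chosen after seeing the data, the medians were -0.09 and -0.05; all members with 2 or more had a median of 0.01, with 8 ratios below 1 and 10 above, against -0.09 with 13 below and 3 above for all those with 1. No paired analysis was possible because each group has 1 library. Fewer than 100 reads, as for Farsb, Pars2, Cars, Wars and Yars2, leave wide intervals.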
